A study of Mus musculus with 8 samples.

Results

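The cytosolic ribosomal protein genes are the protein-coding genes whose symbol is Rpl or Rps followed by a digit, together with Rplp0, Rplp1 and Rplp2. Kinases and binding proteins that carry similar names, and pseudogenes, were left out. The rule gave 83 of the 38293 gene identifiers in the count table, 51 of the large 60S subunit and 32 of the small 40S subunit. The choice used names alone and no measured value.

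Ribosomal proteins assemble with ribosomal RNA into the 40S subunit, which reads the messenger RNA, and the 60S subunit, which joins amino acids. Their messenger RNAs are among the most abundant of a cell, are short, and carry a stretch of C and T letters at their 5′ end through which growth signalling by mTOR controls their translation. In heart muscle, growth of the myocyte is accompanied by new ribosomes, and the paralog Rpl3l is largely limited to heart and skeletal muscle.

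All libraries came from the left ventricle of C57BL/6J mice that underwent cardiac ischemia-reperfusion, in which the LAD coronary artery was tied and released. Every heart received an intramyocardial dose of 2 × 10 µl of the polymer gel Upy-PEG, and tissue was taken 3 days later. The hydrogel group (4 libraries) received the gel without a drug, and the antimiR-195 group (4 libraries) received it with antimiR-195, an inhibitor of the microRNA miR-195. Both groups therefore carry the injury and the gel, and no uninjured or gel-free group was analysed here. Separate animals are not stated in the labels, so p-values measure only the spread between these libraries, and replicate numbers within a group follow the order of deposition.

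Total gene counts lay between 16872968 and 22751753 per library. Cardiomyocyte markers were abundant in every library, with Myh6, the cardiac myosin heavy chain, between 19150 and 23670 CPM (counts scaled by library size). AntimiR-195 replicate 2 stood apart from the other 7 libraries: mitochondrially encoded genes held 9.42% of its gene counts against 16.9% to 22.4% elsewhere, and the entry for alignments to more than 1 place held 47.8% of all entries of its count file against 42.1% to 44.5%. Differences between the groups are therefore given with and without it.

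The stretch over the start of transcription differs between the genes, as the 30 bases around the annotated start show for genes that the results below turn on. The windows run from 20 bases before the start to 10 bases from it, 5′ to 3′, and capitals mark the part within the window of the unbroken run of C and T that holds the first transcribed base. The sequences are those of RefSeq for GRCm38.p6. Among genes whose log2 CPM averaged at least 5, Rplp2 had the largest spread between libraries and Rpl15, Rpl7l1 and Rpl3l the smallest. Rpl7a had the most negative difference, and Rps27 is shown with its retrocopy Rps27rt.
Rplp2: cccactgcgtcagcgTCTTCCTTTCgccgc
Rpl15: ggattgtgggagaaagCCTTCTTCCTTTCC
Rpl7a: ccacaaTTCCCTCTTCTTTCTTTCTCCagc
Rps27: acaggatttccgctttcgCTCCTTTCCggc
Rps27rt: ggttaagaacttatcccttgCTTTCCggcg
Rpl7l1: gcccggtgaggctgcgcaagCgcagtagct
Rpl3l: cagctgagtgttctagctctgtcatttgac
In that order they lie at chr7:141447631-141447660 on the plus strand, chr14:18270977-18271006 on the minus strand, chr2:26910787-26910816 on the plus strand, chr3:90213639-90213668 on the minus strand, chr9:114982730-114982759 on the minus strand, chr17:46782647-46782676 on the minus strand and chr17:24727806-24727835 on the plus strand. The run over the start was 10 bases in Rplp2, 17 in Rpl15, where it goes on past the end of the printed window, 21 in Rpl7a and 9 in Rps27, while Rpl7l1 had a single C and Rpl3l no C or T at its start.

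RefSeq entries from 250 bases before to 50 bases after the start were matched by symbol for 63 of the 83 genes, some with several starts, 75 entries in all. A run of at least 5 C and T letters over the start was present in 28% of the entries (21 of 75) and in 10.1% of all 32851 promoters of the same length. The letters CCGGAAG, on either strand, were present in 34.7% of the entries against 8.86% of all promoters, AAGATGGC, which can overlap CCGGAAG by the letters AAG, in 10.7% against 2.75%, and TATAAA in 9.33% against 13.6%. These matches describe the letters of the windows and depend on where the start was annotated.

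Ribosomal protein genes were among the most abundant coding genes of the ventricle. On the scale of RPKM, which divides reads by gene length and library size, the 81 genes that passed the filter on low counts had mean levels over 8 libraries from 17.1 to 1190, with a median of 139.9, and 53 of them ranked in the top 500 of 21250 coding genes. The highest mean RPKM belonged to Rplp1, an acidic protein of the 60S stalk that recruits elongation factors, at 1052 ± 154 in the hydrogel group and 1329 ± 752 in the antimiR-195 group (SD, n = 4). Next came Rps12 with a mean RPKM of 695 and Rps27 with 666, both of the 40S subunit.

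The lowest mean RPKM among tested genes were those of Rpl7l1 (17.1), Rpl27a (20.2), Rpl36al (21.2), Rpl35a (24.4) and Rpl30 (26.6). The gene length behind the deposited RPKM was 3526 bases for Rpl35a against 491 in its main annotated transcript, which lowers its RPKM. The same held for Rpl30 (3020 against 570), Rpl27a (2774 against 1158) and Rpl36al (1353 against 526), while Rpl7l1 had 2606 for both. For Rps27, near the top, the length was 255 against 345, which raises its RPKM. Ranks by RPKM therefore depend in part on these lengths. Many ribosomal protein genes also have processed copies in the genome. At the median, 91.3% of the 50-base words of a tested gene's coding sequence were found in another annotated transcript, and for 59 of the 81 genes the share was at least 80%. With 100-base words the median was 72.2%, and 35 of 80 genes had a share of at least 80%. Alignments to more than 1 place stand outside the gene counts, so levels compared between genes are uncertain for these genes. Mean RPKM and the share of words found elsewhere had a Spearman's rho of -0.22 over the 81 genes, which come from the same libraries.

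The 2 genes that failed the filter are paralogs known from testis. Rpl10l was listed at 0 counts in 7 libraries and at 1 count in antimiR-195 replicate 1. Rpl39l had between 1 and 10 counts per library.

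The ribosomal protein genes together took 1.89%, 1.56%, 1.94% and 1.61% of the gene counts in hydrogel replicates 1 to 4. In antimiR-195 replicates 1 to 4 they took 1.94%, 3.32%, 1.35% and 1.55%. The highest and the lowest library were both in the antimiR-195 group, and all hydrogel libraries lay between them. The group means were 1.75% ± 0.195 and 2.04% ± 0.888 (SD, n = 4), a difference of 0.29 percentage points that turned to -0.14 without antimiR-195 replicate 2. Without mitochondrially encoded genes in the total the share was 3.66% in that library and 1.74% to 2.37% in the other 7. Fewer cells of a type and less RNA per cell cannot be told apart in such bulk tissue.

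**Figure D1:**
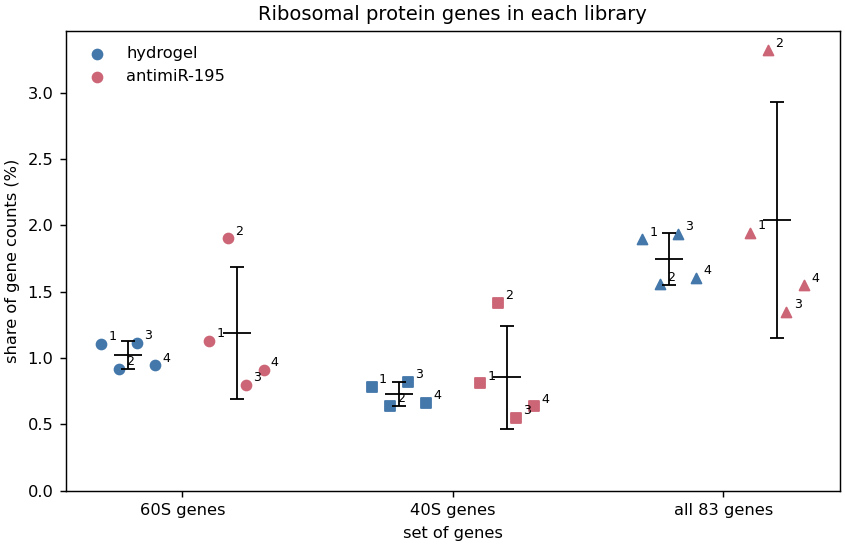
Share of gene counts (%) taken by the 60S genes, the 40S genes and all 83 genes in each library, numbered by replicate, with the group mean and SD (n = 4). AntimiR-195 replicate 2 is highest at 3.32% and antimiR-195 replicate 3 lowest at 1.35% for all 83 genes.

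Both subunits had the same highest and lowest library. The 60S genes took 1.90% and the 40S genes 1.42% of the counts in antimiR-195 replicate 2, against 0.798% and 0.551% in antimiR-195 replicate 3. The ratio of 60S to 40S counts was 1.41 ± 0.0371 in the hydrogel group and 1.41 ± 0.0478 in the antimiR-195 group (SD, n = 4). Its lowest value was 1.34 in antimiR-195 replicate 2 and its highest 1.45 in antimiR-195 replicate 3.

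The position of a gene in a library, its log2 CPM minus its own mean over the 8 libraries, gave the same highest and lowest library as the share of counts, while several libraries between them changed places. In antimiR-195 replicate 2 all 81 tested genes lay above their own mean, with a median position of 0.83. In antimiR-195 replicate 3 none did and the median was -0.43, and in hydrogel replicate 4 none did and the median was -0.23. Hydrogel replicate 3 had 79 of the 81 genes above their mean, antimiR-195 replicate 1 had 65, hydrogel replicate 1 had 50, hydrogel replicate 2 had 3 and antimiR-195 replicate 4 had 1. Over all 13972 tested genes the share above the own mean was 49.4% to 51.8% in every library. AntimiR-195 replicate 2 was the highest of the 8 libraries for 79 of the 81 genes, and antimiR-195 replicate 3 the lowest for 76.

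**Figure D2:**
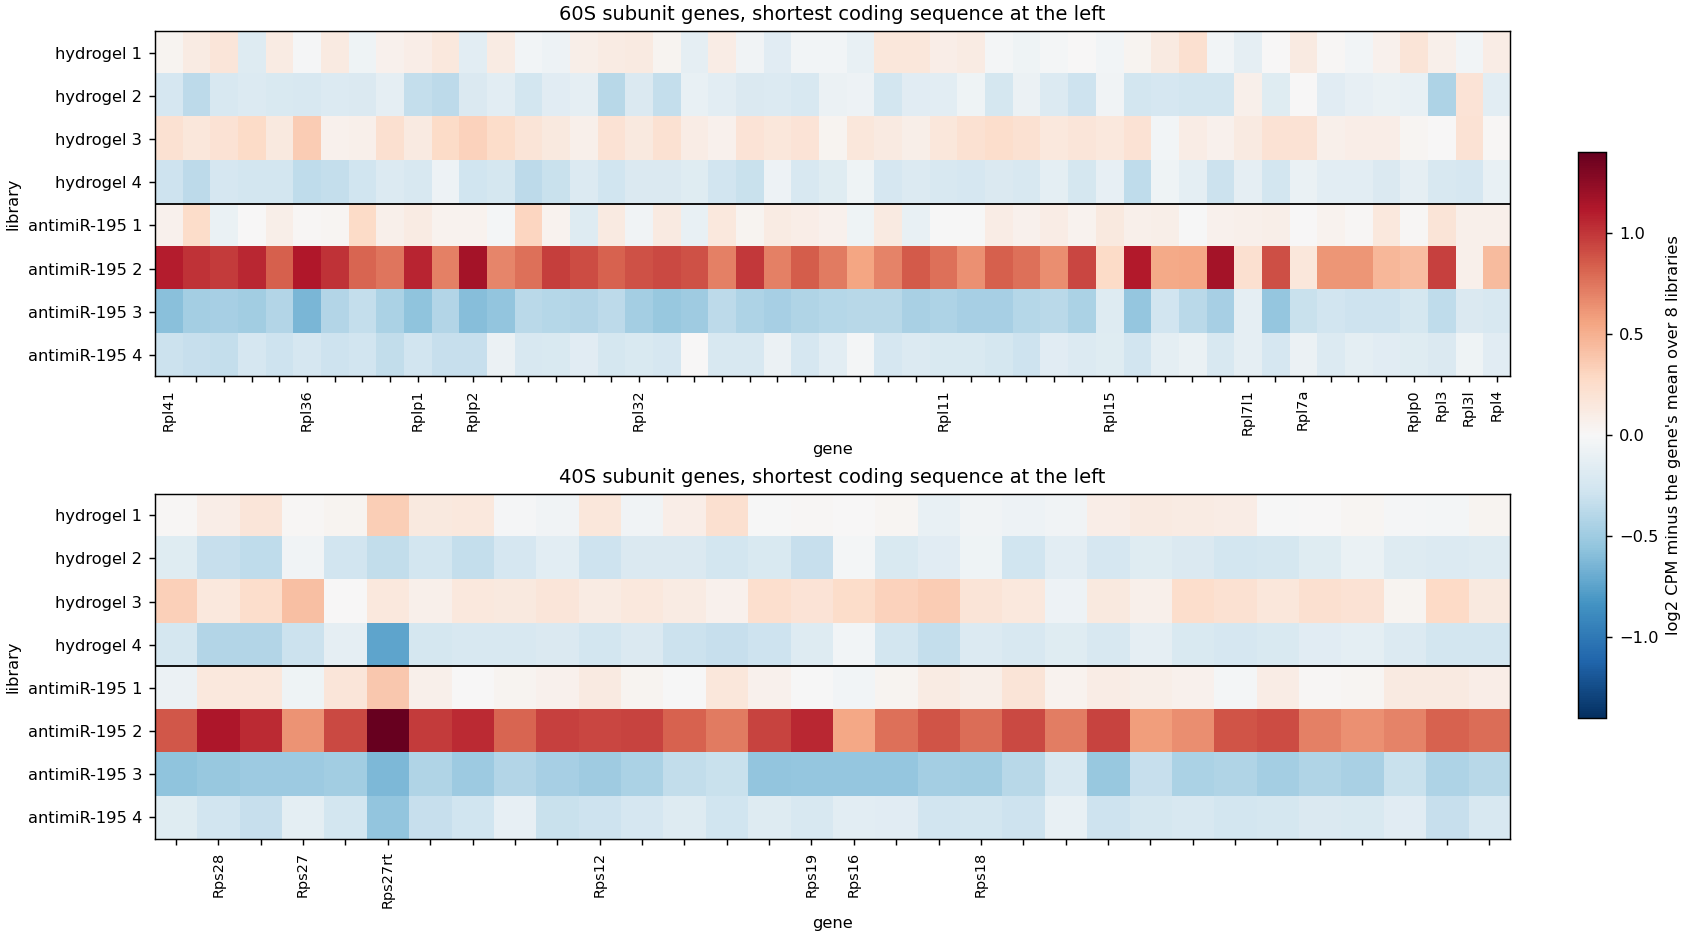
Position of each tested gene in each library, as log2 CPM minus the gene's mean over 8 libraries, with genes ordered by coding length within each subunit and some of those named in the text labelled. The row of antimiR-195 replicate 2 lies above 0 for all 81 genes and that of antimiR-195 replicate 3 below 0 for all 81.

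The 2 genes not highest in antimiR-195 replicate 2 were Rpl3l and Rpl7a. In that library the CPM was between 1.08 times (Rpl3l) and 3.39 times (Rps27rt) the median of the other 7 libraries, and 2.03 times for the median gene. Within the antimiR-195 group the median SD of log2 CPM was 0.556 for ribosomal protein genes and 0.272 for all tested genes. Within the hydrogel group it was 0.199 and 0.18.

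The comparison of the groups asked whether ribosomal protein transcripts differed when the gel carried antimiR-195. With edgeR (quasi-likelihood test), 0 of the 81 genes passed an adjusted p of 0.05, where 0% of all 13972 tested genes did, and each had an adjusted p of 0.9999. At an unadjusted p below 0.05 the count was 0 of 81, against 1.27% of all tested genes (178 genes, or 104 when hydrogel replicate 3 was left out and 352 when antimiR-195 replicate 3 was), and the unadjusted p ranged from 0.181 to 0.998. DESeq2 and limma-trend on RPKM also called 0 of the 81. The groups did not overlap in CPM for 0 of the 81 genes, against 1.07% of all tested genes, and for 75 of the 81 all hydrogel libraries lay inside the range of the antimiR-195 libraries.

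The log2 fold change of antimiR-195 over hydrogel was above 0 for 77 of the 81 genes, where it was above 0 for 52.4% of all tested genes. Its median was 0.19 over the ribosomal protein genes (0.18 for 60S, 0.22 for 40S) and 0.01 over all tested genes. Without antimiR-195 replicate 2 it was above 0 for 4 of the 81 genes, against 48.7% of all genes then tested, and the median was -0.15. The median standard error of a ribosomal protein gene was 0.25, and its 95% confidence interval reached 0.56 to either side, so differences of the size seen were not detectable at this spread.

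**Figure D3:**
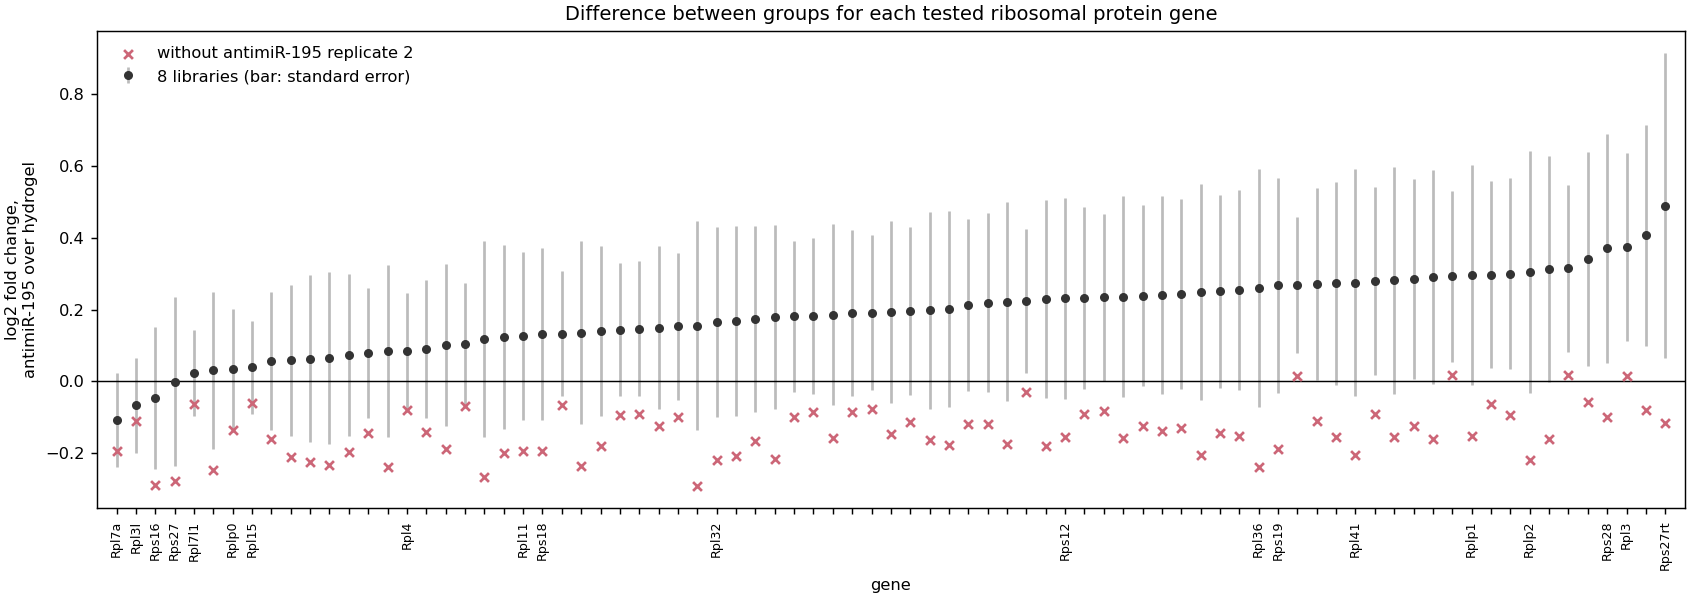
Log2 fold change of antimiR-195 over hydrogel for each tested gene with all 8 libraries (points, bars showing the standard error) and without antimiR-195 replicate 2 (crosses), with some of the genes named in the text labelled. With all libraries 77 of 81 points lie above 0, and without that library 4 of 81 crosses do.

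Of the genes with the smallest p on the positive side, Rpl3, a core protein near the peptidyl transferase centre, had 175, 124, 168 and 143 CPM in the hydrogel libraries and 189, 325, 131 and 146 CPM in the antimiR-195 libraries. AntimiR-195 replicate 2 was the highest, and the other 3 antimiR-195 libraries lay among the hydrogel values or just above them. Its log2 fold change was 0.37 ± 0.26 (edgeR's quasi-likelihood test, adjusted p = 0.9999), and 0.02 without that library. For log2 fold changes, here and below, ± gives the standard error.

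On the negative side, Rpl7a had 284, 260.4, 298 and 244 CPM with hydrogel alone and 262, 291, 209.9 and 245 CPM with antimiR-195. Here hydrogel replicate 3 was the highest library. The log2 fold change of Rpl7a was -0.11 ± 0.13 (-0.19 without antimiR-195 replicate 2), and that of Rps16, a 40S protein, was -0.05 ± 0.20 (-0.29).

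The stalk of the 60S subunit, which binds elongation factors, is built from Rplp0, Rplp1 and Rplp2. Rplp1 had 591, 441, 603 and 472 CPM with hydrogel alone and 598, 1155, 374 and 459.8 CPM with antimiR-195. Rplp2 had 179 to 270.0 CPM with hydrogel alone against 224, 486, 143 and 173 CPM. Both were highest in antimiR-195 replicate 2 and lowest in antimiR-195 replicate 3, and the groups overlapped. Rplp0, the anchor of the stalk and a frequent reference gene, spread less, with 923, 759, 830.3 and 751 CPM against 825, 1103, 689 and 727 CPM. The log2 fold changes were 0.30 ± 0.31 for Rplp1, 0.30 ± 0.34 for Rplp2 and 0.04 ± 0.17 for Rplp0. Without antimiR-195 replicate 2 they were -0.15, -0.22 and -0.14.

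The SD of log2 CPM over the 8 libraries had a median of 0.398 and ran from 0.142 to 0.718. Among genes whose log2 CPM averaged at least 5 it was largest for Rplp2, Rpl36 and Rps28 and smallest for Rpl3l, Rpl7l1 and Rpl15. Rpl36, a 60S protein, had 182, 157, 235 and 143 CPM with hydrogel alone and 186, 399, 118 and 156 CPM with antimiR-195. Rpl15, also of the 60S subunit, had 70.5, 70.2, 80.2 and 66.7 CPM against 79.8, 87.1, 64.0 and 64.5 CPM. AntimiR-195 replicate 2 was the highest library of both genes, 2.54 times the median of the other 7 for Rpl36 and 1.24 times for Rpl15. Without that library the median SD was 0.223 for ribosomal protein genes and 0.187 for all tested genes.

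A list of 10 genes, all of them tested, was selected for 2 traits and does not stand for the whole class. Its genes bind the p53 regulator Mdm2 when ribosome assembly fails (Rpl5, Rpl11, Rpl23) or are mutated in Diamond-Blackfan anaemia. Of these 10, 0 passed the threshold. The log2 fold change was above 0 for 10, against 77 of all 81 ribosomal protein genes, and the median was 0.20 against 0.19. Without antimiR-195 replicate 2 it was above 0 for 0 of 10, against 4 of the 81, with a median of -0.15 in both sets. Rpl11, which binds Mdm2 together with Rpl5, had 239, 202, 252 and 193 CPM with hydrogel alone and 224, 383, 167 and 194 CPM with antimiR-195. Rps19, the gene most often mutated in that anaemia, had 185, 146, 208 and 161 CPM against 182, 378, 126 and 156 CPM. In both genes antimiR-195 replicate 2 was highest, antimiR-195 replicate 3 lowest, and the groups overlapped.

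Rplp0, Rpl13a, Rpl32, Rpl19, Rps18 and Rps29 are in common use as reference genes for quantitative PCR. Their log2 fold changes lay between 0.04 and 0.27 with all libraries and were below 0 for all 6 without antimiR-195 replicate 2, where the median was -0.17. Rps18 had 118, 118, 139 and 108 CPM with hydrogel alone and 129, 210.4, 87.1 and 102 CPM with antimiR-195. Rpl32 had 305, 242, 307 and 242 CPM against 269.9, 519, 201 and 241 CPM. The highest and the lowest library of both genes were again antimiR-195 replicates 2 and 3.

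Paralogs replace their partner in the ribosome of some tissues. Rpl3l, at chr17:24727820-24736143 on the plus strand, had 234, 274, 277 and 204 CPM in the hydrogel libraries and 252, 252, 209 and 231 CPM in the antimiR-195 libraries. Its position in antimiR-195 replicate 2 was 0.07, the lowest of the 81 genes, where its partner Rpl3 (chr15:80077791-80091868, minus strand) was at 325 CPM. None of the 50-base words of the Rpl3l coding sequence occurred in another transcript, against 95.7% of those of Rpl3. The log2 fold change of Rpl3l was -0.07 ± 0.13, or -0.11 without antimiR-195 replicate 2.

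Counts of Rpl3l exceeded those of Rpl3 in 7 of the 8 libraries. Alignments to more than 1 place stand outside these counts, and 95.7% of the words of Rpl3 but none of those of Rpl3l occur elsewhere. The counts of Rpl3 and the ratio are therefore uncertain, and they do not show which gene was more abundant. The ratio of Rpl3l to Rpl3 counts was 1.34, 2.21, 1.64 and 1.43 with hydrogel alone and 1.33, 0.774, 1.60 and 1.58 with antimiR-195. It was lowest in antimiR-195 replicate 2 and highest in hydrogel replicate 2. The mean log2 ratio differed by -0.35 between the groups (two-sided exact permutation test over 70 assignments, p = 0.314, adjusted over 3 pairs 0.457), and by -0.46 to -0.11 when 1 library at a time was left out, with -0.11 without antimiR-195 replicate 2 and -0.20 without hydrogel replicate 2. The smallest p this design allows is 0.0286.

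**Figure D4:**
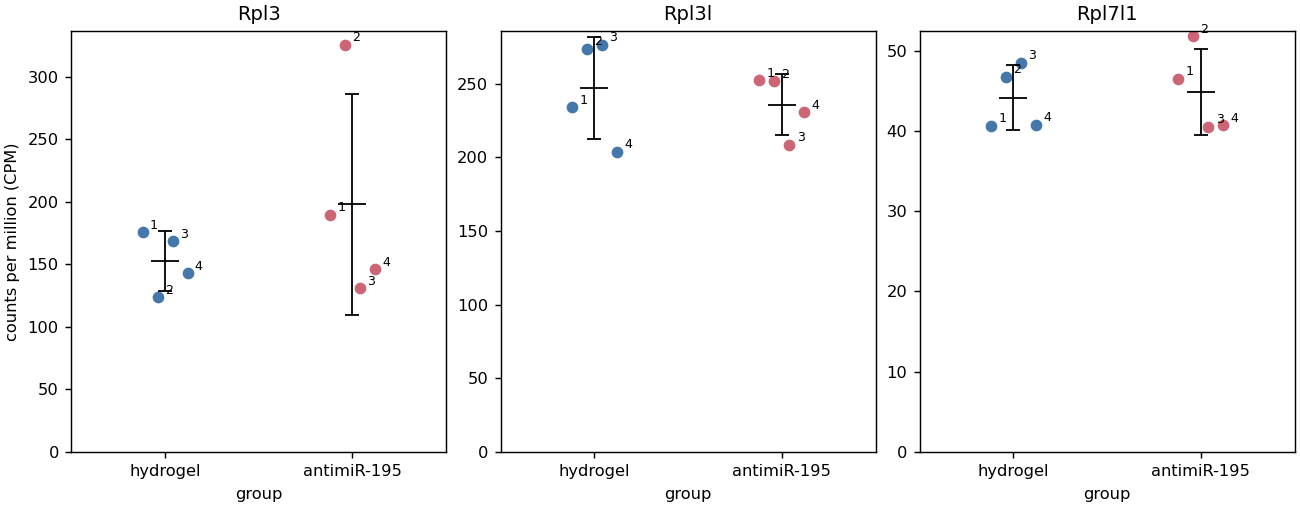
CPM of Rpl3, its muscle paralog Rpl3l and the paralog Rpl7l1 in each library, numbered by replicate, with group mean and SD (n = 4). Rpl3 reaches 325 CPM in antimiR-195 replicate 2, while Rpl3l stays between 204 and 277 CPM in all 8 libraries.

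Rpl22l1, the paralog of Rpl22, had between 0.0972 and 0.121 counts per count of Rpl22, with a log2 difference between groups of 0.06 (exact permutation p = 0.457, adjusted 0.457), or 0.09 without antimiR-195 replicate 2. Rps27l, a p53-inducible paralog of Rps27, had 0.393 to 0.642 counts per count of Rps27, with a log2 difference of 0.22 (exact permutation p = 0.229, adjusted 0.457), or 0.155 without that library. Rpl7l1, a protein of pre-60S assembly, had 40.6, 46.7, 48.5 and 40.7 CPM with hydrogel alone and 46.5, 51.8, 40.5 and 40.7 CPM with antimiR-195, a log2 fold change of 0.02 ± 0.12, or -0.06 without that library. All 50-base words of the coding sequences of Rps27 and of its retrocopy Rps27rt occur in other transcripts. The counts of both, and the ratio of Rps27l to Rps27, are therefore uncertain. Rps27rt had 14.8, 9.09, 12.8 and 6.94 CPM against 15.1, 30.8, 7.48 and 7.86 CPM, and the largest log2 fold change of the 81 genes at 0.49, or -0.11 without antimiR-195 replicate 2.

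The position in antimiR-195 replicate 2 followed coding length. Over the 81 genes Spearman's rho between them was -0.57, and in antimiR-195 replicate 3, the library at the other end, it was 0.54. The genes share their libraries, so these are descriptions. The median position in antimiR-195 replicate 2 was 0.96 for the 29 genes with up to 400 coding bases, 0.78 for the 29 genes with more than 400 and up to 600, and 0.64 for the 23 longer genes. Rpl41, the smallest with 75 coding bases, was at 2.51 times the median of the other 7 libraries, and Rpl4, the longest with 1257, at 1.46 times. Rpl3 was an exception among the long genes at 2.23 times.

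**Figure D5:**
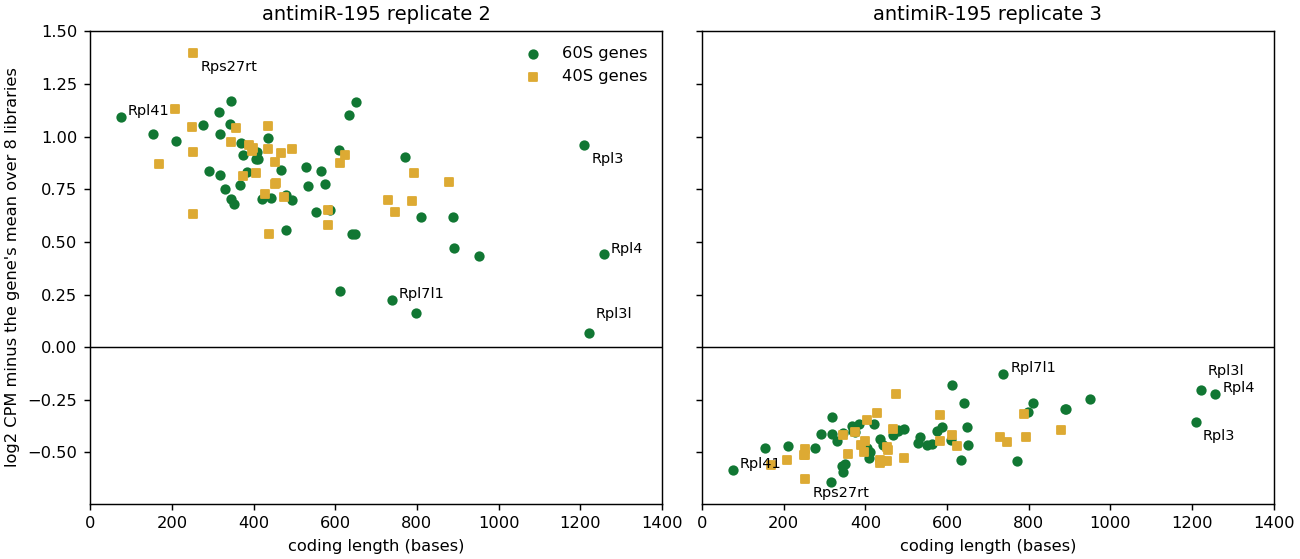
Position of each tested gene (log2 CPM minus its mean over 8 libraries) against its coding length in bases, in antimiR-195 replicate 2 (left) and antimiR-195 replicate 3 (right). Short genes tend to lie farther from 0 in both libraries, above it on the left and below it on the right, with Spearman's rho of -0.57 and 0.54.

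Other short genes also had their median position above 0 in antimiR-195 replicate 2 and below 0 in antimiR-195 replicate 3. Those tested with a main transcript under 1000 bases (1133 genes) had a median of 0.59 in antimiR-195 replicate 2 and -0.33 in antimiR-195 replicate 3, and genes over 4000 bases (4098 genes) had -0.29 and 0.21. The median main transcript was 775 bases for ribosomal protein genes and 2842 bases for all tested genes. With the length trend of each library removed, the median log2 fold change of the ribosomal protein genes was 0.07, and 62 of the 81 were above 0, where it was 0.19 and 77 of 81 before. The share above 0 over all tested genes is not given for this setting, so the count of 62 has no background. The trend used the length of the main annotated transcript, not the coding length. The 76 tested proteins of the mitochondrial ribosome, encoded in the nucleus, had medians of 0.47 and -0.27 in antimiR-195 replicates 2 and 3. The position in antimiR-195 replicate 2 had a rho of -0.03 with the share of words found elsewhere. Its median was 0.91 for the 21 genes with a C and T run of at least 5 bases over the start and 0.78 for the 40 other genes with a promoter entry.

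In antimiR-195 replicate 2 the summed CPM of the marker lists of other cells was the highest of the 8 libraries for all but the endothelial list, where it was the lowest, and the macrophage and fibroblast sums were close to those of hydrogel replicate 4. The part of these cells in the result was not tested. The summed CPM of 4 neutrophil markers was 67.8 there, against 24.9 to 31.5 in the hydrogel group and 22.9 to 30.2 in the other antimiR-195 libraries, and 2 of the 4 were highest in it. These 2 were S100a8 and S100a9, with medians over the 8 libraries of 5.70 and 8.28 CPM and highest values of 20.5 and 31.9 CPM. Csf3r and Cxcr2 had medians of 11.8 and 1.55 CPM and were highest in other libraries, at 14.7 and 2.1 CPM. The length trend of antimiR-195 replicate 2 was not removed from any of these sums. The sum of 8 macrophage markers was 1916 against 1383 to 1892 and 1175 to 1412, with 4 of the 8 highest there. The sum of 3 erythroid markers was 1529 against 324 to 1192 and 402 to 819, with 2 of the 3 highest there. The sum of 4 cell cycle markers was 99.8 against 40.5 to 85.2 and 60.7 to 76.5, with 4 of the 4 highest there. The 7 fibroblast markers summed to 8188 against 4374 to 8060 and 6118 to 6464, with 3 of the 7 highest there. The 4 endothelial markers summed to 434 against 500 to 657 and 536 to 656, with 0 of the 4 highest there. The 4 lymphocyte markers summed to 2.13 against 1.08 to 1.66 and 1.01 to 1.77, with 1 of the 4 highest there and Cd79a at 0 in at least 1 library. Cardiomyocyte markers, 8 in all, summed to 73560 CPM there and to 59680 to 70910 CPM in the other 7 libraries, with 4 of the 8 highest there.

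Of the other components of the translation machinery, 0 genes of any list below passed the threshold. Rpsa, the laminin receptor protein of the 40S subunit that the naming rule does not cover, had 439.7, 365, 468 and 375 CPM with hydrogel alone and 475, 1019, 306 and 360.0 CPM with antimiR-195. Its order of libraries was that of the other ribosomal proteins, with antimiR-195 replicate 2 highest and replicate 3 lowest.

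Over all tested genes the log2 fold change was above 0 for 52.4%, or for 48.7% of those tested without antimiR-195 replicate 2. Translation elongation factors were above 0 in log2 fold change for 6 of 7 genes (median 0.09), and initiation factors for 19 of 28 (median 0.03). Without antimiR-195 replicate 2 the medians were -0.05 and 0.01. Ribosome biogenesis factors, which process ribosomal RNA, were above 0 for 26 of 33 with a median of 0.11, or -0.0017 without antimiR-195 replicate 2 and then 16 of 33 positive. Their median position in antimiR-195 replicate 2 was 0.29, against 0.83 for the ribosomal protein genes. RNA polymerase I genes, which transcribe ribosomal RNA, were positive for 9 of 14 with a median of 0.02, and growth signalling genes around mTOR and Myc for 7 of 13 with a median of 0.01. Without that library their medians were 0.01 and 0.09. Nop58, a snoRNP core protein, had a log2 fold change of 0.27 ± 0.15 (0.16 without antimiR-195 replicate 2), and Myc, a regulator of ribosome synthesis, one of 0.26 ± 0.21 (0.19).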

How the data were processed

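Polyadenylated left ventricular RNA of 8 libraries was sequenced after TRIzol extraction and a TruSeq stranded mRNA kit, per the labels' protocols. STAR, HTSeq, DESeq and the build GRCm38 are named, per the submitters' processing notes. Read length, HTSeq's strand mode and the release of the annotation were not given in the sources used here. Whole-number read counts per Ensembl gene were deposited for each library, and so were RPKM values, which imply a gene length. Alignments to more than 1 place stand on a line of their own in the deposited counts and, with the other lines that name no gene, entered no test and no library size.

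Gene names and biotypes came from GENCODE release M21 of GRCm38, which named 36429 of 38293 identifiers. The rule left out 226 pseudogenes and 11 kinases or binding proteins. The 13972 genes with enough counts (filterByExpr) were scaled with TMM factors of 0.953 to 1.04 and tested with edgeR 4.0.16 in R 4.3.3 (quasi-likelihood, no covariates, all 8 libraries, Benjamini-Hochberg adjustment over all genes, threshold 0.05). CPM are counts over the normalized library size, and log2 CPM used a prior count of 2. Ratios of paralogs used counts plus 0.5 and exact permutation over the 70 assignments of libraries. Alternatives were DESeq2 1.42.0, upper-quartile factors, library size only, no filter, limma-trend (limma 3.58.1) on log2(RPKM + 0.1) and leaving out each library. Removing each library's trend on transcript length was added after seeing the data. The fit was tested on simulated data.

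Genes named were the 3 per direction with the smallest p, the 5 highest and 5 lowest by mean RPKM, the 3 with the largest and 3 with the smallest SD of log2 CPM (mean of at least 5), those of the paralog, partner, Mdm2 or Diamond-Blackfan and reference gene lists, those that failed the filter, and the 2 with the smallest p of each other list. A few genes that this rule picks are left out of the text. Rps27rt, Rpl4, Rpl41, Rpl37a and Rpl29 were named after their values were seen. The genes and lists were chosen with earlier results of these data known.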

Additional observations from a re-analysis of the deposited data

Results flagged for a closer look

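Of 170 groups of 4 libraries checked for a library far from the others, 2 held such a library, where chance gives about 1 in 20. Both were hydrogel replicate 3. For Rpl37a, a small zinc finger protein of the 60S subunit, its log2 CPM was 7.59, with the other 3 hydrogel libraries close together down to 7.07. For Rpl29, also of the 60S subunit, its log2 CPM was 5.86, with the lowest hydrogel library at 5.59.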

How the results depend on the processing

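With all 8 libraries or any alternative tried, 0 ribosomal protein genes passed the threshold. The median log2 fold change of the ribosomal protein genes was 0.19 in edgeR, 0.19 with DESeq2, 0.20 with upper-quartile factors, 0.23 with library size only, 0.18 without the filter, 0.15 with limma-trend on RPKM and 0.07 with the length trend removed, and -0.15 to 0.34 with 1 library left out, where the negative value was that without antimiR-195 replicate 2. The difference in their share of counts ran from -0.14 to 0.521 percentage points with 1 library left out, and again only leaving out antimiR-195 replicate 2 gave a negative value. Unadjusted p was below 0.05 for 237 of all genes with DESeq2, 428 without the filter, 180 with limma-trend on RPKM and 259 with the length trend removed, against 178, and for 104 to 352 with 1 library left out, the lowest when this was hydrogel replicate 3 and the highest when it was antimiR-195 replicate 3. Leaving out hydrogel replicate 4 gave 311 and leaving out antimiR-195 replicate 4 gave 335.

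Log2 fold changes of named genes changed sign most often without antimiR-195 replicate 2. Their ranges over leaving out each library were as follows: Rps16 -0.29 to 0.098, Rplp1 -0.15 to 0.48, Rps12 -0.15 to 0.40, Rps27 -0.28 to 0.15, Rps15 -0.16 to 0.41, Rpl32 -0.22 to 0.32, Rpl7l1 -0.063 to 0.072, Rpl27a -0.078 to 0.34, Rpl35a -0.24 to 0.23, Rpl30 -0.23 to 0.20. Further ranges were Rplp2 -0.22 to 0.50, Rpl36 -0.24 to 0.46, Rps28 -0.10 to 0.56, Rpl15 -0.0598 to 0.10, Rps27l -0.091 to 0.45, Rpl10 -0.064 to 0.23, Rpl22 -0.090 to 0.37, Rps4x -0.031 to 0.35, Rpl7 -0.090 to 0.25, Rpl36a -0.15 to 0.43. Next were Rpl39 -0.058 to 0.52, Rps24 -0.14 to 0.41, Rps26 -0.15 to 0.41, Rps19 -0.19 to 0.45, Rps10 -0.17 to 0.40, Rpl5 -0.068 to 0.21, Rpl11 -0.19 to 0.27, Rps7 -0.14 to 0.20, Rpl23 -0.086 to 0.31. The last were Rps18 -0.19 to 0.29, Rpl19 -0.098 to 0.28, Rps29 -0.27 to 0.29, Rplp0 -0.14 to 0.12, Rpl13a -0.11 to 0.43, Rpsa -0.13 to 0.58, Eif5a -0.019 to 0.27, Eef1d -0.12 to 0.35, Eif6 -0.055 to 0.48. Rps27, at -0.00 in edgeR, was 0.0078 with upper-quartile factors and 0.041 with library size only. With the length trend removed, an alternative chosen after seeing the data, Rpl32 was -0.0042, Rpl35a -0.0701, Rpl30 -0.0703, Rps7 -0.0045, Rps18 -0.025, Rps29 -0.058 and Rplp0 -0.019. The cause of these sign changes was not tested.

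No paired analysis was possible because replicate numbers follow the order of deposition and pair no libraries across the groups. Depth limited the comparison of Rpl10l and Rpl39l, which had 1 and 45 counts over all libraries.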
